A study of Arabidopsis thaliana with 4 samples.

Results

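UDP-glycosyltransferases (UGTs) are a large plant enzyme family. Here 51 of its genes were compared in salt-treated Arabidopsis roots, taken as whole roots or, in separate samples, as released and sorted cells. The members are the probe sets of the ATH1 array listed for a single gene whose symbol or synonym is UGT followed by a number, with no condition on signal. They are 51 of the 22810 probe sets, 1 for each of 51 genes in 12 numbered groups, and 13350 genes in all have such a probe set. For 47 of them the current symbol is the UGT name, and for 4 it is a synonym (UGT72B1, listed as GT72B1, UGT79B1, listed as UF3GT, UGT79B6, listed as AT5G54010, and UGT80A2, listed as SGT). The reference table names 64 UGT genes by this rule. Of the 13 others, 4 lie in probe sets listed for several genes and 9 were not analysed here. The family holds further genes under other names.

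Enzymes of this family move a sugar, most often glucose, from a UDP-sugar to a small acceptor molecule. In plants the acceptors include salicylic acid, auxin, abscisic acid, cytokinins, flavonoids, monolignols and foreign compounds, and the sugar usually makes the acceptor more soluble, less active and easier to store in the vacuole. The number in a name marks a sequence group and the letter and last number a subgroup and gene, so that genes close in name are close in sequence.

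Both groups held root tissue of Columbia seedlings 6 days after germination, grown on standard medium and moved to 140 mM NaCl for 1 hour, and the labels name no transgene. Whole roots were harvested intact (2 arrays). Sorted protoplasts came from roots whose walls had been digested after the salt hour, with the released cells run through a flow sorter and all kept (2 arrays). The question posed by the series is how protoplasting and sorting alter transcript levels, and roots without salt were not analysed here.

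Values are MAS5 signals, intensities on a linear scale. The median signal over all probe sets other than controls was between 79.0 and 90.2 on the 4 arrays. The ratio of 3' to 5' GAPDH signal ranged from 3.45 to 15.0, highest in whole-root replicate 1, and that of actin from 19.1 to 41.5, highest in sorted-protoplast replicate 1. Replicates are samples that the labels number 1 and 2 without saying that they were separate plantings, so a p-value covers the spread of these arrays alone, part or all of which may be technical, and the number of arrays limits all precision. Log2 signals of the 51 UGT probe sets correlated within whole roots at 0.964, within sorted protoplasts at 0.948 and across groups at 0.897 to 0.940, a description over genes that are not independent. In tissue samples such as these, fewer cells of a type and less RNA per cell cannot be told apart.

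Of the UGT genes tested, UGT73B4 rose in sorted protoplasts and UGT71C2 fell, and the 33 others did not pass the test. Differences are sorted protoplasts minus whole roots on the scale of log2(signal + 16). A probe set was tested when its mean log2 value was above the lowest 40%, which corresponds to a signal of about 51.3. Of the 51 members 35 were tested and 16 were below that filter. At a limma adjusted p under 0.05, 1 of 35 was called higher (2.86%) and 1 lower (2.86%). Among all 13647 probe sets tested, 6.38% were called higher and 4.11% lower. The smallest rise called anywhere was 1.21 and the smallest fall -1.22, so differences under about 1 could not be called at this replication.

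The counts for the members lay near those for all tested probe sets. The median difference was -0.21 for the 35 members and -0.16 for all tested probe sets, with 17 members above the latter value and 18 below it. Differences over 1 in size were seen in 7 members (20.0%) and in 20.6% of all tested probe sets. Of the tested members 1, UGT71B5, had a whole-root mean under the filter and 2 a sorted-protoplast mean under it (UGT72E3 and UGT76D1), so each passed the filter only through the other group. An unadjusted p under 0.05 was reached by 8 members (22.9%), 4 in each direction, against 26.3% of all tested probe sets. UGT71B5 and UGT72E3 are among these 8. Both sorted-protoplast signals lay above both whole-root signals for 9 members (25.7%, against 21.5% of all tested) and below them for 15 (42.9%, against 36.2%). In the other 11 the groups overlapped. Scaling the arrays on hybridization spike-ins moved the median of all tested probe sets to -0.57 and that of the members to -0.58. It changed the members' calls to 0 higher and 1 lower, and the calls over all probe sets from 870 higher and 561 lower to 421 and 680. With array medians set equal these were 933 and 388, and the members' calls were unchanged at 1 and 1.

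**Figure D1:**
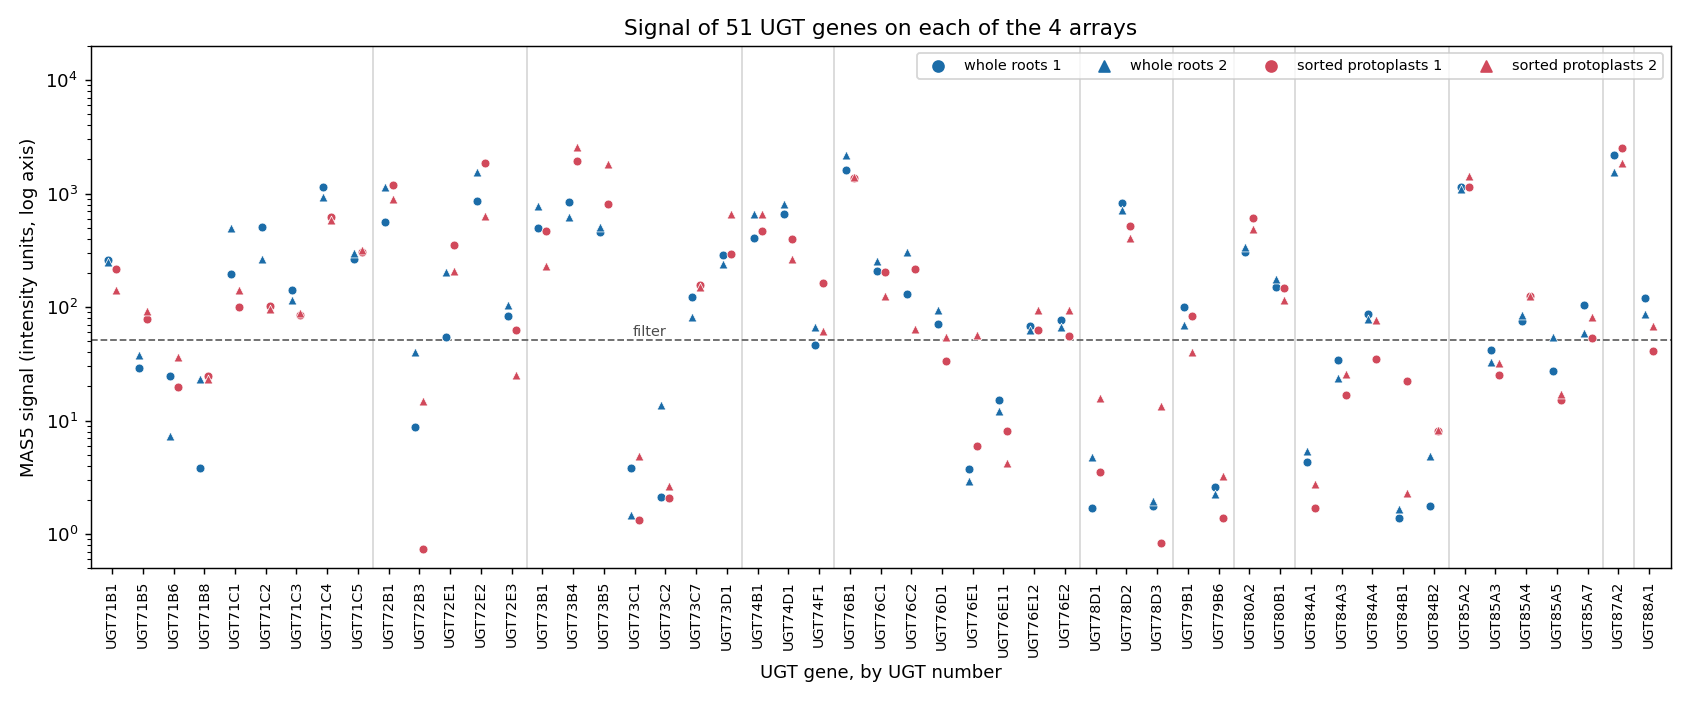
MAS5 signal (log axis) of each of the 51 UGT genes on the 2 whole-root arrays (blue) and the 2 sorted-protoplast arrays (red), with replicate 1 as circles and replicate 2 as triangles; genes are ordered by UGT number, vertical lines part the groups and the dashed line is the filter at a signal of about 51.3. For UGT73B4 both red points lie above both blue points and for UGT71C2 below them, and 16 genes have a mean below the filter; signals of different probe sets do not compare transcript amounts.

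**Figure D2:**
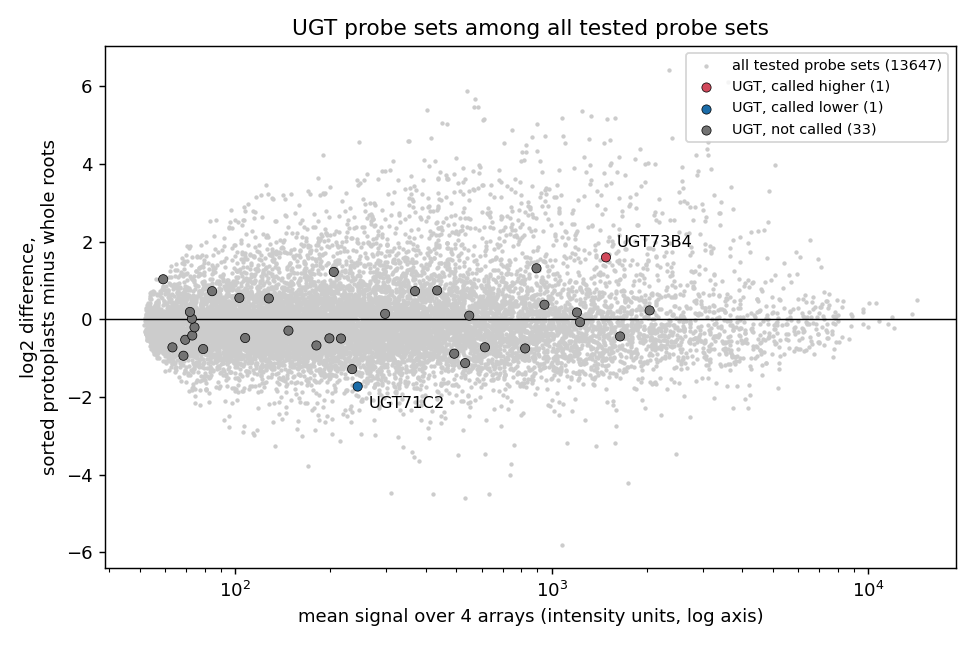
Log2 difference (sorted protoplasts minus whole roots) against mean signal (log axis) for all 13647 tested probe sets (pale grey) and the 35 tested UGT probe sets (outlined). UGT73B4, called higher, and UGT71C2, called lower, are labelled, and the 33 other members lie between them within the cloud of all probe sets.

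The UGT73 group held the 2 highest differences of the family. Of its 7 members 5 were tested, 1 rose and 4 were not called, and 4 of the 5 differences were above 0 (median 0.73). UGT73B4, whose enzyme accepts flavonoids and also foreign nitroaromatic compounds, had signals of 840.0 and 621 in whole roots and 1923 and 2551 in sorted protoplasts. Both sorted-protoplast arrays were well above both whole-root arrays. The mean went from 730.4 ± 155 to 2237 ± 444 (SD, n = 2), a ratio of 3.06, and the log2 difference was 1.60 ± 0.37 (SE, limma adjusted p = 0.0239). That call was lost without whole-root replicate 1 (1.81, adjusted p = 0.129), without whole-root replicate 2 (1.38, adjusted p = 0.175), without sorted-protoplast replicate 2 (1.39, adjusted p = 0.0583) and with spike-in scaling (1.14, adjusted p = 0.218). The limma adjusted p ranged from 0.00791 to 0.218 over 18 alternatives and was under 0.05 in 13 of them, and a threshold of 0.01 was not passed. Here and for the other genes, alternatives that change only the threshold repeat the main adjusted p by construction and are counted among the alternatives. When a whole-root array was left out, far fewer of all tested probe sets were called than in the main fit, so such losses were not particular to these genes.

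UGT73B5, its neighbour and near relative, is known for a part in resistance to Pseudomonas bacteria. Its signals were 455 and 503 in whole roots and 813 and 1808 in sorted protoplasts. The groups did not overlap, but the sorted-protoplast arrays differed by more than a factor of 2, and the log2 difference of 1.31 ± 0.43 (SE) had a limma adjusted p of 0.0859. Without sorted-protoplast replicate 1 it was 1.88 (adjusted p = 0.0107), which passes, and over 18 alternatives the adjusted p ranged from 0.0107 to 0.419.

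UGT73B1 had lower values in sorted protoplasts, with signals of 499 and 770.3 in whole roots and 469 and 229 in sorted protoplasts, a log2 difference of -0.88 ± 0.43 (SE) that did not pass. The difference between UGT73B1 and the other UGT73 genes was not tested. UGT73D1 had 285 and 239 in whole roots and 295 and 661 in sorted protoplasts, which gave 0.73 on the log2 scale (95% interval -0.24 to 1.69). UGT73C7, which acts on phenylpropanoids, had 123 and 81.5 against 155 and 151, with a difference of 0.54 (-0.25 to 1.33). Neither passed. UGT73C1, another enzyme for nitroaromatic compounds and for cytokinins, and UGT73C2 were under a signal of 16 on all 4 arrays.

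**Figure D3:**
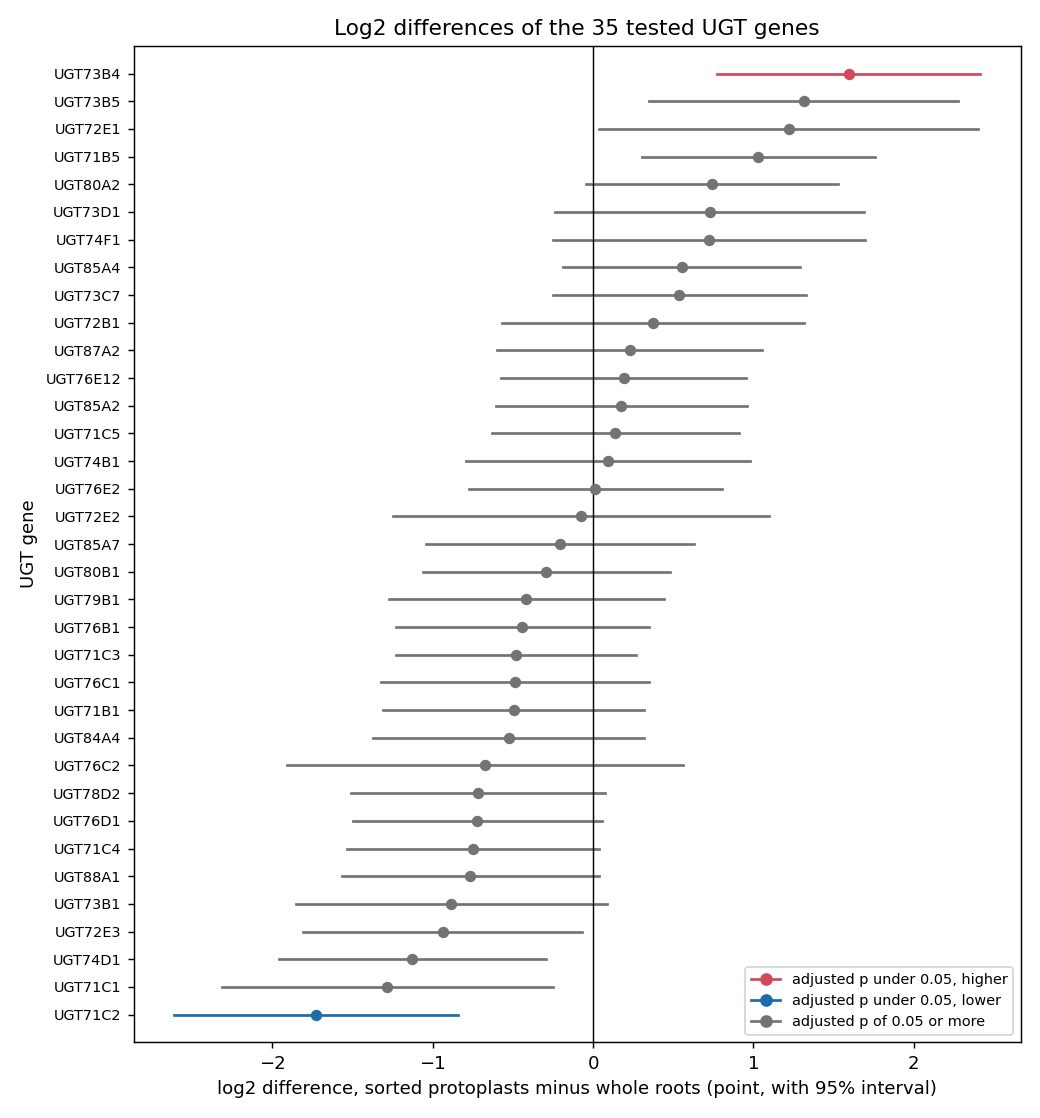
Log2 difference (point) with its 95% interval (line) for the 35 tested UGT genes, ordered by difference. UGT73B4 (1.60) and UGT71C2 (-1.73) are the 2 called at an adjusted p under 0.05; 6 of the 33 others have intervals that do not cross 0 before adjustment.

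The UGT71 group held the 2 lowest differences, and also 1 of the 4 highest. Of 9 members 7 were tested, 1 fell and 6 were not called (median -0.49, range -1.73 to 1.03). UGT71C2 had signals of 508 and 267 in whole roots and 103 and 97.2 in sorted protoplasts. The sorted-protoplast arrays were close to each other and both far below the whole-root arrays. The mean went from 387 ± 171 to 100.1 ± 4.22 (SD, n = 2), lower by a ratio of 3.87, and the log2 difference was -1.73 ± 0.39 (SE, limma adjusted p = 0.0235). The call was lost without whole-root replicate 1 (-1.28, adjusted p = 0.228) and without whole-root replicate 2 (-2.17, adjusted p = 0.0751). Over 18 alternatives the limma adjusted p ranged from 0.00262 to 0.228, and it was under 0.05 in 15, spike-in scaling among them (-2.14, adjusted p = 0.0229), while a threshold of 0.01 was not passed.

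UGT71C1, the next gene along the chromosome, makes glucosides of caffeic acid and other phenolics in vitro. It had signals of 194 and 501 in whole roots and 101 and 141 in sorted protoplasts, which did not overlap. Its log2 difference of -1.28 ± 0.46 (SE) did not pass (limma adjusted p = 0.112), and its whole-root arrays differed by a factor of over 2. Without whole-root replicate 2 it was -0.63 and without whole-root replicate 1 -1.93, neither of which passed. Over 18 alternatives its limma adjusted p ranged from 0.0418 to 0.483 and was under 0.05 in 1 of them.

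UGT71B5 had the highest difference of the group. Its signals were 29.3 and 37.7 in whole roots and 78.1 and 91.9 in sorted protoplasts, with no overlap. The log2 difference of 1.03 ± 0.32 (SE, limma adjusted p = 0.0745) did not pass. Both whole-root signals were under the filter, so UGT71B5 was tested only through its sorted-protoplast signals, and its difference is a description. With an offset of 64 it was 0.61 and with an offset of 1 it was 1.33. The other tested genes of the group had smaller differences. UGT71C4 had 1155 and 925 in whole roots and 627 and 590.3 in sorted protoplasts (log2 difference -0.75, 95% interval -1.53 to 0.04). UGT71C3, an enzyme for methyl salicylate, had 140.3 and 116 against 84.7 and 89.1 (-0.48, -1.23 to 0.27). UGT71C5, which glucosylates abscisic acid and so lowers the active hormone, had 267 and 298 against 306 and 319, with a difference of 0.14 and an interval from -0.63 to 0.91. UGT71B1 had 258 and 247 against 218 and 140.1 (-0.49, -1.31 to 0.32). None of these 4 passed. UGT71B6 and UGT71B8, enzymes for abscisic acid as well, were below the filter, with signals from 7.37 to 36.5 and from 3.86 to 24.5.

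The UGT72 group, whose subgroup E acts on monolignols, the building blocks of lignin, had 4 of 5 members tested. At an adjusted p under 0.05, 0 were called. UGT72E1 and UGT72E3 had an unadjusted limma p under 0.05, as had 26.3% of all tested probe sets, and for UGT72E3 the difference is only a description, as given below. UGT72E1 had signals of 54.4 and 202 in whole roots and 353 and 209.7 in sorted protoplasts. The upper whole-root array almost reached the lower sorted-protoplast array, and the log2 difference of 1.22 ± 0.53 (SE) did not pass (limma adjusted p = 0.177). It had the widest replicate ratio of the tested members in whole roots, 3.71. Its difference was 0.41 without whole-root replicate 1 and 2.04 without whole-root replicate 2, and over 18 alternatives the limma adjusted p ranged from 0.0462 to 0.743, under 0.05 in 1 of them. UGT72E2, a coniferyl alcohol enzyme of roots, had 866 and 1534 in whole roots and 1875 and 638 in sorted protoplasts. Its groups overlapped fully, and the difference was -0.07 ± 0.52 (SE). UGT72E3, which also acts on monolignols, had 83.5 and 103 in whole roots and 62.6 and 25.2 in sorted protoplasts (-0.94 ± 0.39, SE, limma adjusted p = 0.161). Without sorted-protoplast replicate 1 the difference was -1.40. The sorted-protoplast mean of UGT72E3 was under the filter, so it was tested only through its whole-root signals, and its difference is a description. UGT72B1, known for conjugating chlorinated foreign compounds and monolignols, had 561 and 1132 against 1195 and 905, with a difference of 0.38 (-0.57 to 1.32). UGT72B3 was below the filter, with signals from 0.740 to 40.3.

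The 3 UGT74 genes were all tested and 0 were called, with 1 at an unadjusted p under 0.05, against 26.3% of all tested probe sets. UGT74D1, an auxin glucosyltransferase, had signals of 662 and 804 in whole roots and 400.3 and 264 in sorted protoplasts, without overlap. Its log2 difference of -1.13 ± 0.37 (SE) had a limma adjusted p of 0.0872. UGT74F1, which forms the glucoside of salicylic acid, had 46.0 and 66.8 in whole roots and 163 and 62.1 in sorted protoplasts. Only 1 of its sorted-protoplast arrays was high, and the difference was 0.72 ± 0.43 (SE, limma adjusted p = 0.324). Without sorted-protoplast replicate 2 it was 1.32 and passed (adjusted p = 0.0395), and without sorted-protoplast replicate 1 it was 0.13, with a range of adjusted p from 0.0395 to 0.883 over 17 alternatives. UGT74B1, the glucosyltransferase of glucosinolate synthesis, had 403 and 667 against 468 and 658, a difference of 0.09 with an interval from -0.79 to 0.98.

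In the UGT76 group 6 of 8 members were tested and 0 were called by limma, also with 0 at an unadjusted p under 0.05. UGT76B1, which glucosylates the defence signals salicylic acid, isoleucic acid and N-hydroxypipecolic acid, had signals of 1617 and 2192 in whole roots and 1373 and 1394 in sorted protoplasts. Both sorted-protoplast arrays were lower, by a log2 difference of -0.44 with an interval from -1.23 to 0.35. The cytokinin N-glucosyltransferases UGT76C1 and UGT76C2 lie side by side. UGT76C1 had 208 and 257 in whole roots and 203 and 125 in sorted protoplasts (-0.49, -1.33 to 0.35). UGT76C2 had 132 and 308 against 218 and 64.5, with the widest replicate ratio of the tested members in sorted protoplasts, 3.38, and a difference of -0.67 whose interval ran from -1.91 to 0.56. Without sorted-protoplast replicate 1 that difference was -1.44 and without sorted-protoplast replicate 2 it turned to 0.10, neither of which passed. UGT76D1, an enzyme for dihydroxybenzoic acids formed from salicylic acid, had 71.2 and 93.7 against 33.7 and 54.8 (-0.72, -1.50 to 0.06). Its sorted-protoplast mean was under the filter, so its difference is a description. In subgroup E the differences were 0.19 for UGT76E12 and 0.02 for UGT76E2. UGT76E11 (4.23 to 15.1) was under 16 on all arrays, and UGT76E1 had 3.76 and 2.95 in whole roots and 5.98 and 57.0 in sorted protoplasts, so that only sorted-protoplast replicate 2 was above 16.

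The flavonoid groups UGT78 and UGT79 each had 1 tested member, neither called. UGT78D2, the flavonoid 3-O-glucosyltransferase, had signals of 823 and 714 in whole roots and 515 and 409 in sorted protoplasts, without overlap. Its log2 difference was -0.72, with an interval from -1.51 to 0.07. UGT78D1 and UGT78D3, which add rhamnose and arabinose to flavonols, stayed at or below 15.8 on all arrays. UGT79B1, which adds xylose to anthocyanins, had 99.6 and 69.9 in whole roots and 82.9 and 40.4 in sorted protoplasts (-0.42, -1.27 to 0.44). UGT79B6, a flavonol enzyme known from pollen, had 1.39 to 3.27. In the UGT84 group, whose subgroup A makes glucose esters of hydroxycinnamic acids, only UGT84A4 was tested. It had 87.5 and 78.8 in whole roots and 34.8 and 77.0 in sorted protoplasts (-0.53, -1.37 to 0.32). UGT84A3 was below the filter with 16.7 to 34.4, UGT84A1 and UGT84B2 were under 16 throughout, and the auxin enzyme gene UGT84B1 was above 16 only on sorted-protoplast replicate 1 (22.3).

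The sterol glucosyltransferase genes of the UGT80 group were both tested and not called. UGT80A2 had signals of 303 and 337 in whole roots and 611 and 488 in sorted protoplasts, without overlap, and 0.74 on the log2 scale (-0.04 to 1.53). UGT80B1 had 149.5 and 178 against 146 and 116 (-0.29, -1.06 to 0.48). Of the 5 UGT85 genes 3 were tested and 0 called, with 0 at an unadjusted p under 0.05 in limma. UGT85A2 had 1141 and 1106 in whole roots and 1136 and 1424 in sorted protoplasts (0.18, -0.60 to 0.96), UGT85A4 had 75.9 and 85.4 against 126 and 125 (0.55, -0.19 to 1.29), and UGT85A7 had 104 and 58.8 against 53.5 and 81.2 (-0.21, -1.04 to 0.63). UGT85A5 and UGT85A3 were below the filter. UGT85A5 had 27.4 and 54.6 in whole roots and 15.0 and 17.0 in sorted protoplasts.

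UGT87A2, which has a part in flowering time, had signals of 2202 and 1556 in whole roots and 2530 and 1865 in sorted protoplasts, with overlapping groups and a log2 difference of 0.23 (-0.60 to 1.06). UGT88A1 had 119 and 87.8 against 41.3 and 68.7, without overlap, and a difference of -0.76 (-1.57 to 0.04). Neither was called. The 95% interval reached between 0.73 and 1.23 to each side of the difference over the 35 tested members (median 0.83). For genes that did not pass, a change of well over 0.5 in at least 1 direction was within the interval, and for some in both directions.

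The 16 members below the filter had mean signals from 2.38 to 32.9, and 8 of them were under 16 on all 4 arrays. Only UGT76E1 and UGT85A5 were above 51.3 on any array, each on 1 of them. Their differences, given with no test, ran from -0.79 (UGT85A5) to 1.05 (UGT76E1). At the edge of the filter, UGT71B5 (mean signal 59.2) was the dimmest tested and UGT85A3 (32.9) the brightest not tested. The signals of replicates differed by a factor of over 2 in 4 tested members in whole roots and in 9 in sorted protoplasts. The same count was not made for all tested probe sets. The median ratio was 1.29 in whole roots, against 1.32 for all tested probe sets, and 1.49 in sorted protoplasts, against 1.35.

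Many UGT genes stand in rows of relatives along the chromosome. Neighbours were taken as named UGT genes with at most 2 other protein-coding genes between them, which gave 7 pairs of consecutive genes with both members tested. In 5 pairs both differences had the same sign and in 2 the signs were opposite, with UGT71C4 standing in 2 of the 7 pairs. Of all 35 tested members 16 differences were above 0 and 19 below, so many pairs of members that are not neighbours also share a sign. That count depends on the scaling and the arrays, with 7 pairs of the same sign on spike-in scaling, 6 without whole-root replicate 1 or without sorted-protoplast replicate 1, and 4 without sorted-protoplast replicate 2. UGT73B5 and UGT73B4 on chromosome 2 were 1.31 and 1.60, UGT73D1 and UGT73C7 on chromosome 3 were 0.73 and 0.54, UGT71C2 and UGT71C1 on chromosome 2 were -1.73 and -1.28, UGT76C2 and UGT76C1 on chromosome 5 were -0.67 and -0.49, and UGT71C4 and UGT71C3 on chromosome 1 were -0.75 and -0.48. The exceptions were UGT71C5 and UGT71C4 (0.14 and -0.75) and UGT85A7 and UGT85A2 (-0.21 and 0.18), both on chromosome 1. The median gap between the differences of neighbours was 0.28, and over all 595 pairs of tested members it was 0.79. The neighbour distance was set with the values in view, so these gaps are a description, and they were not taken under other settings. Neighbours are similar in sequence, and how far their probe sets share signal was not tested, although none of the 51 carries the array's mark for probes shared between genes. The row of UGT71C2 and UGT71C1 also holds UGT71D1, which has no probe set of its own here. Its probe set, shared with another gene, is given under other observations.

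**Figure D4:**
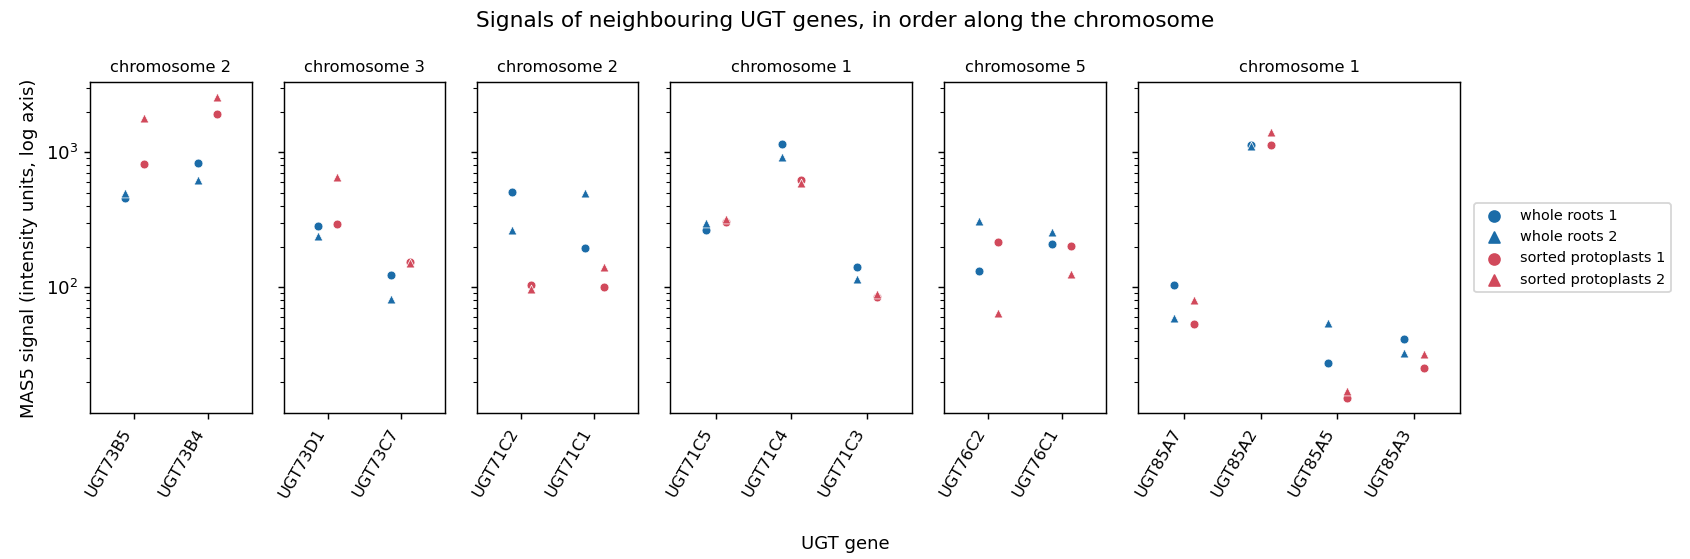
MAS5 signal (log axis) of neighbouring UGT genes in order along the chromosome, on the 2 whole-root arrays (blue) and the 2 sorted-protoplast arrays (red), with replicate 1 as circles and replicate 2 as triangles. Red lies above blue for both UGT73B5 and UGT73B4 and below blue for both UGT71C2 and UGT71C1, while in the UGT85A row UGT85A2 overlaps and UGT85A5 is lower in sorted protoplasts.

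Genes around the UGT reaction were looked at through 5 lists, few of whose genes could be tied to a probe set of their own. Of 27 UDP-sugar supply genes 1 was tested, USP, a UDP-sugar pyrophosphorylase, with signals of 219 and 363 in whole roots and 622 and 447 in sorted protoplasts and a log2 difference of 0.86 (-0.01 to 1.74), which did not pass. Of 27 phenylpropanoid and flavonoid synthesis genes 2 were tested and 1 rose. CCR2, a cinnamoyl-CoA reductase, had 114 and 321 against 966 and 2491 (2.90 ± 0.56, SE, limma adjusted p = 0.0113), and HCT, an acyltransferase of lignin synthesis, was not called at -0.31. Of 49 other xenobiotic response and detoxification genes 8 were tested, all of them glutathione transferases, and 1 rose. It was GSTU25, with 1637 and 1545 in whole roots and 5276 and 6180.4 in sorted protoplasts (1.83 ± 0.34, SE, limma adjusted p = 0.00943), and the median of the 8 was -0.01. Of 29 other hormone inactivation genes 4 were tested and 0 were called in limma, with 1 at an unadjusted p under 0.05. GH3.3, an auxin-conjugating enzyme, had 603 and 584 against 309 and 143 (-1.42 ± 0.42, SE, limma adjusted p = 0.0585), and GH3.17, of the same family, was not called at -0.82. The 2 others were above 0, at 0.17 for GH3.5 and 0.33 for DAO1, an auxin oxidase, and the median of the 4 was -0.32. GH3.1, below the filter, had 4.45 and 4.21 in whole roots and 91.6 and 52.5 in sorted protoplasts. Of 20 glucosinolate synthesis genes 0 were measured. These counts stand against 6.38% of all tested probe sets called higher and 4.11% lower, and 26.3% at an unadjusted p under 0.05.

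Cell type markers moved between the preparations beside the UGT genes, and their part in the UGT differences was not tested. Of 5 root hair markers 2 were measured, EXPA7 and EXPA18, and both fell, with summed signals of 1348 and 1812 in whole roots and 282 and 372 in sorted protoplasts. Of 4 root cap markers 2 were measured, SCPL48 and PASPA3, and both rose, from sums of 2083 and 2036 to 8076 and 8919. The xylem marker IRX15, 1 of 5 listed, had 54.8 and 47.2 in whole roots and 218 and 128 in sorted protoplasts. Its whole-root mean was just under the filter, so IRX15 was tested only through its sorted-protoplast signals, and its difference is a description. Both stele markers measured of 5 (sums 258 and 287, then 413 and 274) and both shoot markers measured of 4 (319.9 and 437, then 279 and 142) were not called. The cortex marker CO2 was below the filter, and 0 endodermis and 0 phloem markers were measured.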

How the data were processed

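ATH1 arrays carried RNA of 2 whole-root and 2 sorted-protoplast preparations after an amplification in 2 cycles, per the labels' protocols. The deposited values are intensities made by the authors with MAS5, per the submitters' processing notes, and each array has a trimmed mean (2% off each end) of about 250.02, so arrays had been scaled to a common level. Groups and replicate numbers came from titles. Probe sets were named from the platform annotation through gene identifiers of the TAIR10.1 RefSeq table: 13513 of the 22746 other than controls had 1 gene, 503 several and 8730 none listed, and 13436 of the first matched RefSeq. The annotation gives no build for the array, so no coordinates are printed, and no sequence is printed.

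The authors' scaling was kept, and values entered the fit as log2(signal + 16). Controls and the lowest 40% by mean were left out, and 13647 probe sets were fitted by lmFit and moderated by eBayes on a variance trend (R 4.3.3, limma 3.58.1, 2 residual and 7.56 prior degrees of freedom) and Benjamini-Hochberg adjustment over all of them. The fit was tested on simulated data. SE is the moderated one, and 95% intervals use it. Members, gene lists and alternatives were chosen with earlier results of these data known. UGT genes were named in full where called, among the 5 highest or 5 lowest differences, of the highest signal in their group or beside a called gene in a row of at least 3. The other members were added with their values in view, as was the neighbour distance. The planned promoter and protein comparisons were not made. Alternatives were other offsets, filters, scalings, priors, thresholds and member rules, a replicate block, and each array left out. A group left with 1 array is assumed to vary like the other.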

Additional observations from a re-analysis of the deposited data

Results flagged for a closer look

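Apart from the members, 2 probe sets annotated to more than 1 gene had higher signals on both sorted-protoplast arrays than on both whole-root arrays. A probe set listed for a pair of UGT73 genes had signals of 2734 and 2745 in whole roots and 3963 and 6852 in sorted protoplasts, which is 0.92 on the log2 scale (95% interval 0.08 to 1.77, limma adjusted p = 0.156). A probe set listed for a UGT89 gene and a gene of another name had 371 and 256 against 442 and 386, which is 0.40 (-0.41 to 1.22, limma adjusted p = 0.519). Neither passed the threshold, and their signals cannot be given to a single gene.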

How the results depend on the processing

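Crossed replicate numbers were added after seeing the data. What lay behind a changed call was not tested, beyond the construction of the setting. The calls among the members, 1 higher and 1 lower, became 0 and 0 when all 22746 probe sets entered. They were 0 and 0 at a threshold of 0.01, 3 and 2 at a threshold of 0.10, and 0 and 1 on spike-ins. Over all probe sets, 870 higher and 561 lower became 394 and 137, 393 and 107, 1188 and 1087, and 421 and 680 in turn. Calls also changed when single arrays were dropped. Without either whole-root array no member passed, and far fewer of all tested probe sets were called than in the main fit. Without either sorted-protoplast array some other members passed, and more of all tested probe sets were called. Replicates 1 and 2 share only a number, and deviations of same-numbered samples correlated at -0.156. A replicate block gave 2 higher and 2 lower, adding UGT73B5 (adjusted p = 0.0335) and UGT71C1 (adjusted p = 0.0418), and crossed replicate numbers gave 2 and 1. Over all tested probe sets the block gave 1123 higher and 787 lower, and crossed numbers gave 1137 and 922. The offsets of 1 and 64, the filters at 20% and 60%, equal medians, quantile normalization and other priors gave 1 and 1. Narrower member rules could not change the calls. No member carries the mark for shared probes, and both called genes have a UGT name as their symbol. The median of the tested members stayed between -0.58 and -0.07, below 0 in all settings. That of all tested probe sets was below 0 in all settings too, between -0.57 and -0.06. For the 35 tested genes, 615 comparisons with an alternative kept their side of the threshold in 596, lost the call in 10 and gained it in 9, with 0 reversals of a called difference. Most of the 596 were genes not called in either fit. All 10 losses were of UGT73B4 and UGT71C2, the only genes called in the main fit. Among the members not called, 10 changed sign in at least 1 setting. The call of UGT73B4 was also lost with no filter (adjusted p = 0.0684), as was that of UGT71C2 (adjusted p = 0.0816). Low signal is a further limit, with 10 to 12 of the 51 members under 16 on each array.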

Other observations

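A further probe set is listed for UGT71D1, from the chromosome row of UGT71C2 and UGT71C1, and for AT2G29710. It carries the array's mark for probes shared between genes. This probe set had signals of 329.5 and 239 in whole roots and 100.2 and 94.7 in sorted protoplasts. Its log2 difference of -1.39 ± 0.35 (SE, n = 2 per group) passed limma's test with an adjusted p of 0.0352, and which of its genes gave the signal was not tested.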
